A study of Mus musculus with 12 samples.

Results

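The genes followed here encode the nuclear subunits of the mitochondrial respiratory chain and of the ATP synthase, measured in sorted dermal papilla (DP) cells. The members were all genes whose symbols are those of the Nduf, Sdh, Uqcr, Cox or Atp5 subunit families and that are listed at both ages analysed, which gave 79 of the 14986 genes listed at both. They comprise 36 genes of complex I, 4 of complex II, 8 of complex III, 14 of complex IV and 17 of complex V, and all 79 passed the filter on low values. RNA was sequenced from DP cells that had been sorted for a Cre-dependent YFP, with 3 control and 3 dMF1/2 mice at postnatal day 14 (P14) and 3 of each at postnatal day 16 (P16), 12 libraries in all. The dMF1/2 mice carry floxed alleles of Fgfr1 and Fgfr2, the genes of 2 Fgf receptors, and Cor-cre, which is driven by Corin, a gene of the DP, and is meant to recombine them there. According to the methods, controls carried either Cor-cre with 1 floxed copy of each receptor gene or both floxed genes without Cre. The sort needs YFP and thus Cre, which of these genotypes the first alone carries. The YFP reporter was used in both genotypes, follicles of all 12 libraries were labelled as anagen, and each library is labelled as sorted primary DP cells. The genotype comparisons ask what the loss of both receptors changes in the DP at each age, and the comparison of the ages asks how the same genes stand 2 days later, nearer the end of the growth phase.

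The respiratory chain lies in the inner mitochondrial membrane. Complex I takes electrons from NADH and complex II from succinate, complex III passes them to cytochrome c, complex IV hands them to oxygen, and complex V, the ATP synthase, uses the proton gradient that results to make ATP. Complexes I, III, IV and V are built from subunits of the nuclear genome together with a few of the mitochondrial genome, whereas complex II is entirely nuclear. Some nuclear subunits exist as isoforms that differ between tissues. The DP is the cluster of mesenchymal cells at the base of the hair follicle that signals to the hair-forming epithelium. Several genes that match the names have another standing: Ndufa4 is now placed in complex IV, Cox7a2l joins complexes III and IV into supercomplexes, and Atp5s and Atp5sl are not core subunits of the ATP synthase.

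The libraries held 19302358 to 29860750 reads in the genes listed for their age, of which the 13 mitochondrial-encoded subunits took 0.623% to 1.59%. Col1a1 took the largest share in each library, 13.1% to 17.7%, except in the replicates numbered 1 at P14, where it took 7.06% in control and 9.15% in dMF1/2 mice. At P16, Fgfr1 had 12517, 8512 and 9940 normalized reads in control and 8015, 6226 and 7552 in the dMF1/2 libraries, a log2 change of -0.50 ± 0.16 (SE, n = 3 and 3; limma's adjusted p = 0.130, and 0.0109 with the replicate number as a block). At P14 the log2 change of Fgfr1 was -0.40 ± 0.13 (adjusted p = 0.501, with the block 0.0691), and for Fgfr2 it was -0.11 ± 0.14 at P14 and -0.01 ± 0.13 at P16, so no lower level was detected for Fgfr2. These gene-level counts include exons outside the deleted parts. The summed level of 14 DP markers in RPM, reads scaled to the total of the library, was 1647 to 3511 in the P16 control libraries, against 4409 to 7058 in P16 dMF1/2 and 4291 to 9327 over both genotypes at P14. The marker gene sets of skeletal muscle (at most 33.5 RPM), hair follicle keratinocytes (at most 43.4), immune cells (at most 8.34), melanocytes (at most 42.2), endothelial cells (at most 43.0), adipocytes (at most 45.1) and cell division (at most 16.8) were low in every library. The pericyte and smooth muscle set summed to 1352 to 1532 in P16 control and 829 to 974 in P16 dMF1/2 mice, and to 854 to 1561 over both genotypes at P14. In sorted bulk samples, fewer cells of a type and less RNA per cell cannot be told apart, and the part of these marker differences in any value below was not tested.

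The subunits were expressed over a wide range in the DP. Levels were compared between genes as reads scaled jointly over the 12 libraries and divided by the transcript length in kb. On that scale Cox4i1, the widely expressed form of a regulatory complex IV subunit, stood highest in P14 control, at 4963 ± 531 reads per kb (SD, n = 3). It was followed by Atp5b at 4089 ± 353 and Atp5a1 at 3069 ± 183, which encode the catalytic beta and the alpha subunit of the ATP synthase. The next 2 genes, Uqcrh (2431 ± 103), a small acidic subunit of complex III, and Atp5e (2359 ± 72.7) of the ATP synthase, differed by less than their spread. The 3 leading genes held the same first 3 places in P16 control and in P16 dMF1/2 mice. Cox7a1 and Atp5s stood lowest, at 41.2 ± 17.3 and 20.4 ± 2.3 reads per kb in P14 control. The median level over the members of a complex in P14 control was 529 reads per kb for complex I, 723 for II, 970 for III, 1212 for IV and 1220 for V. In P16 control these medians were 451, 586, 752, 1096 and 1236 in the same order.

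Among the isoforms, the widely expressed form was the more abundant in each of the pairs Cox4i1 and Cox4i2, Cox7a2 and Cox7a1, and Cox6b1 and Cox6b2, in every group. The ratio of the per-kb levels of Cox4i1 to Cox4i2, the form known from lung, was 59.4 in P14 control, 45.4 in P14 dMF1/2, 53.5 in P16 control and 53.4 in P16 dMF1/2 mice. Cox7a2 exceeded Cox7a1, the form of heart and skeletal muscle, 20.3-fold, 18.3-fold, 25.1-fold and 22.4-fold in the same order of groups. Cox6b1 exceeded Cox6b2, known from testis, 10.3-fold in P14 control, 10.8-fold in P14 dMF1/2 and 10.6-fold in P16 dMF1/2 mice, against 6.40-fold in P16 control. Of the 3 genes that encode the same mature c subunit of the ATP synthase rotor, Atp5g2 (2259 ± 173 reads per kb in P14 control) and Atp5g3 (2011 ± 41.5) lay far above Atp5g1 (274 ± 6.5). A share of 38.3% of the 50-base words of Atp5g2 transcripts also occurs in transcripts of other genes, so its level is uncertain. Of the 15 isoforms looked for, 12 were members, and Cox6a2, Cox8b and Cox8c were not analysed here.

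At P14 no subunit was called different between the genotypes. None of the 79 members had an adjusted p under 0.05 in limma (0.0525% of all 13334 genes tested did), and none did in edgeR (0.0525% of all genes), in DESeq2 (1.55%) or in limma with the replicate number as a block (1.68%). At an unadjusted p under 0.05 stood 1 member, 1.27% against 7.32% of all genes. That member was Atp5s, coupling factor B, named after its values were seen, with 31.7, 34.3 and 27.3 normalized reads in control and 41.2, 50.1 and 42.2 in dMF1/2 mice. All 3 of its dMF1/2 libraries lay above the control libraries, with a log2 change of 0.50 (adjusted p = 0.681). Log2 changes, here and below, were taken after adding 1 to each value, which understates the change of genes with few reads. The changes of the members ran from -0.25 in Cox5a to 0.50, with a median of -0.04 against 0.00 over all genes. Below 0 lay 53 of the 79, which is 67.1% against 48.7% of all genes. The median was -0.02 with 46 members below 0 without P14 dMF1/2 replicate 1, -0.08 with 62 below 0 without P14 dMF1/2 replicate 2, and 0.00354 with 39 below 0 in the blocked fit without replicate 1 of either genotype. With scaling by total reads it was -0.07 against -0.03 over all genes, with 67 members below 0. The libraries of the 2 genotypes did not overlap in 10 members, 12.7% of them and 12.7% of all genes tested.

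At P16 no member was called in limma without a block or in edgeR and 2 were called lower in DESeq2, while the values of most lay slightly lower in dMF1/2 mice. None of the 79 passed in limma (4.32% of 13457 genes did) and none in edgeR (4.48% of all genes). DESeq2, also without a block, called Cox6b2 and Cox8a lower, 2.53% of the members against 4.35% of all genes. In limma 5 stood at an unadjusted p under 0.05, which is 6.33% of the members against 19.0% of all genes. The median log2 change was -0.08 against -0.00 over all genes, and the range ran from -0.81 in Cox6b2 to 0.22 in Cox7a1. Below 0 lay 63 of the members, which is 79.7% against 50.8% of all genes. The median was -0.03 with 51 members below 0 without P16 control replicate 2, -0.03 with 45 below 0 without P16 dMF1/2 replicate 1, and -0.15 with 68 below 0 without P16 dMF1/2 replicate 2. With scaling by total reads it was -0.02 against 0.06 over all genes, with 46 members below 0. Groups did not overlap in 11 members, of which 10 were lower in dMF1/2 mice. These 11 are 13.9% of the members, against 24.5% of all genes tested. By complex the medians were -0.08 in I, -0.05 in II, -0.12 in III, -0.14 in IV and -0.07 in V. Genes of the cytosolic ribosome also had a median of -0.08 at P16, with 63 of 74 below 0. Other nuclear genes with transcripts under 500 bases had a median of -0.09, against -0.05 for the 12 members of that length. From 500 to 1000 bases other genes had -0.04 against -0.11 for 40 members, and from 1000 to 2000 bases -0.02 against -0.06 for 21. The part of transcript length in these values was not tested.

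**Figure D1:**
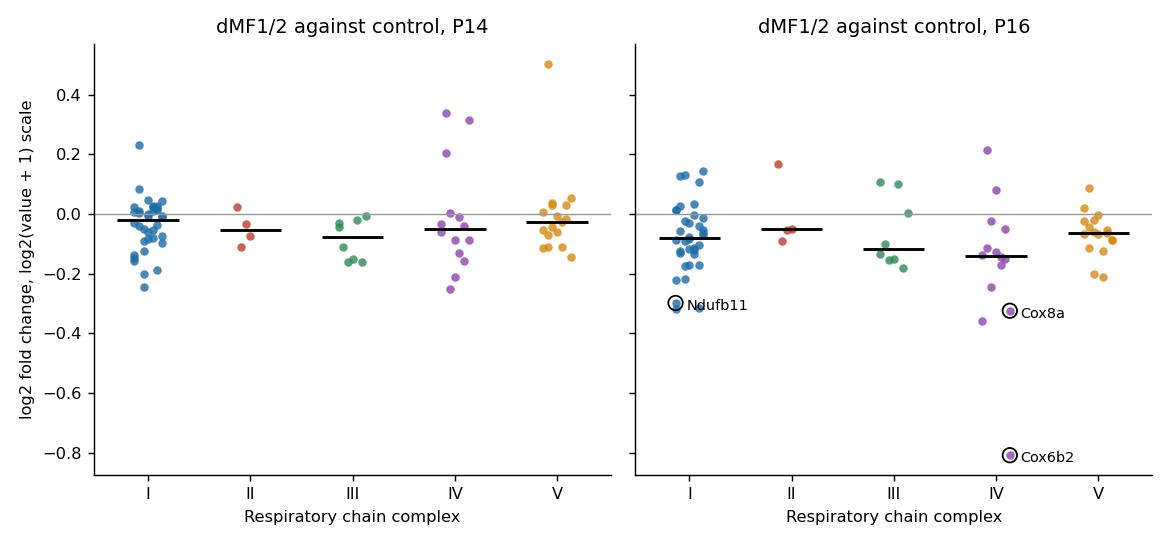
Each point is 1 subunit gene, placed by complex on the horizontal axis and by its log2 change of dMF1/2 over control on the vertical axis, at P14 and at P16; short lines mark the median of a complex and circles mark an adjusted p under 0.05 with the replicate block. Most points lie within 0.25 of 0, and the 3 circled genes at P16 are Cox6b2 (-0.81), Cox8a (-0.32) and Ndufb11 (-0.30).

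With the replicate number as a block, 3 members were lower in dMF1/2 mice at P16 (5.56% of all genes were called lower) and none was higher. DESeq2 had called 2 of them. Cox6b2, at 7:4751792-4753094 on the minus strand of GRCm38, had 127, 109 and 135 normalized reads in control and 81.0, 49.5 and 84.7 in dMF1/2 mice. Every dMF1/2 library was below every control library. The log2 change of Cox6b2 was -0.81, with an adjusted p of 0.0938 in limma, 0.0267 with the block and 0.0325 in DESeq2. Cox8a, the smallest nuclear-encoded subunit of complex IV, at 19:7215158-7217616 on the minus strand, had 804, 805 and 754 normalized reads in control and 640, 631 and 616 in dMF1/2 mice. Its groups were again separate, with a log2 change of -0.32 and an adjusted p of 0.0612 in limma, 0.0330 with the block and 0.0402 in DESeq2. Ndufb11, an accessory subunit of the membrane arm of complex I encoded at X:20615326-20617619 on the minus strand, had 776, 857 and 791 normalized reads in control and 624, 690 and 656 in dMF1/2 mice. Its log2 change was -0.30, with an adjusted p of 0.0995 in limma and 0.0414 with the block. For each of these genes the exact two-sided permutation test gave p = 0.1, the smallest that 3 against 3 mice can give. With the block, none of the 3 calls held each time a pair of mice was left out. Without pair 1 the members called were Cox6b2 alone (adjusted p = 0.0447), without pair 2 Cox6c alone (log2 change -0.48, adjusted p = 0.0180), a complex IV subunit named after its values were seen, and without pair 3 none. In these fits 4.60%, 5.90% and 2.01% of all genes were called lower, against 1.27%, 1.27% and 0% of the members.

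The promoter of Cox8a is shown because it carries 2 copies of the letters ACTTCCGG, the reverse complement of CCGGAAGT, which ETS family factors such as GABP are known to bind. The sequence is that of RefSeq for GRCm38.p6, chr19:7217567-7217866, read 5′ to 3′ on the minus strand from 250 bases before the transcription start to 50 after, with the matches in capitals. They begin 6 bases before and 32 bases after the start.
Cox8a promoter: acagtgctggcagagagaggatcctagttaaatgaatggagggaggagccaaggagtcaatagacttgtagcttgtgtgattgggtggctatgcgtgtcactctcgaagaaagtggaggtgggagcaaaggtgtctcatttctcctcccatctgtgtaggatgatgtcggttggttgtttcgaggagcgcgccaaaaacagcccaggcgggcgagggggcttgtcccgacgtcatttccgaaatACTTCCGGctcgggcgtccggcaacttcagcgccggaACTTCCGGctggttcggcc

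The catalytic and core subunits were not called at P16. Sdha, the flavoprotein that oxidizes succinate in complex II, was the only member whose dMF1/2 libraries lay above all control libraries. It had 1585, 1693 and 1644 normalized reads in control and 1880, 1861 and 1792 in dMF1/2 mice, a log2 change of 0.17 (unadjusted p = 0.0498 and adjusted p = 0.262 in limma). The log2 changes of Sdhb, the iron-sulfur subunit, and of the membrane anchors Sdhc and Sdhd were -0.09, -0.05 and -0.05. In complex I they were -0.13 for Ndufs1, which carries iron-sulfur clusters, and -0.10 for Ndufv1, which oxidizes NADH. For Ndufa1, an accessory subunit of complex I, the log2 change was -0.32 (adjusted p = 0.251). In complex III the change was -0.18 in Uqcrfs1, the Rieske iron-sulfur protein, -0.15 in Uqcrc1 and 0.10 in Uqcrc2. In complex V it was 0.02 in Atp5a1, -0.11 in Atp5b and -0.02 in Atp5c1, the alpha, beta and gamma subunits of the catalytic head. None of these had an adjusted p under 0.05 in limma, with or without the block.

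Between P14 and P16, 26 of the 79 subunits fell in control mice and 27 in dMF1/2 mice, and none was called higher in limma without a block. With the replicate number in the model, 1 member, Cox6b2, was called higher in control (limma's adjusted p = 0.0371). That is 1.27% of the members, while 1019 of all genes were higher in the same fit. Replicate numbers of the 2 ages did not pair the samples, as given below. The falls are 32.9% of the members in control, where 8.28% of all 13415 genes tested fell and 6.26% rose. They are 34.2% in dMF1/2 mice, where 3.97% of all genes fell and 1.83% rose. The median log2 change of the members was -0.23 in control and -0.28 in dMF1/2 mice, against 0.01 and 0.01 over all genes, and 66 and 72 members lay below 0. Fallen in both genotypes were 25, which is 96.2% of the falls in control and 92.6% of those in dMF1/2 mice. The same shares over all genes were not computed, so whether this sharing is particular to the members is not known. Uqcr10 was called in control alone, and Cox8a and Ndufv3 in dMF1/2 mice alone. Of these, Uqcr10 and Ndufv3 were named after their values were seen. The test of the difference between the genotypes, given below, called no member. The 2 comparisons share no library, but they come from 1 model with a common estimate of the spread. All values between the ages are jointly scaled reads, because the authors normalized each age separately. Whatever else differed between the 2 ages in collection or sequencing cannot be told apart from age. With scaling by total reads, 15 members fell in control and 11 in dMF1/2 mice. The split over all genes was then 102 higher and 301 lower in control in place of 840 and 1111, and 4 higher and 100 lower in dMF1/2 mice in place of 246 and 532. The median of all genes moved from 0.01 to -0.09 in control, and the median of the members relative to it was -0.25 in control under both scalings. The count in dMF1/2 mice was 17 without P14 dMF1/2 replicate 3 and 16 without P16 dMF1/2 replicate 1, and 15 in a fit of the 6 dMF1/2 libraries only. Over all genes, 248, 234 and 261 were lower at P16 in these fits, in place of 532.

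**Figure D2:**
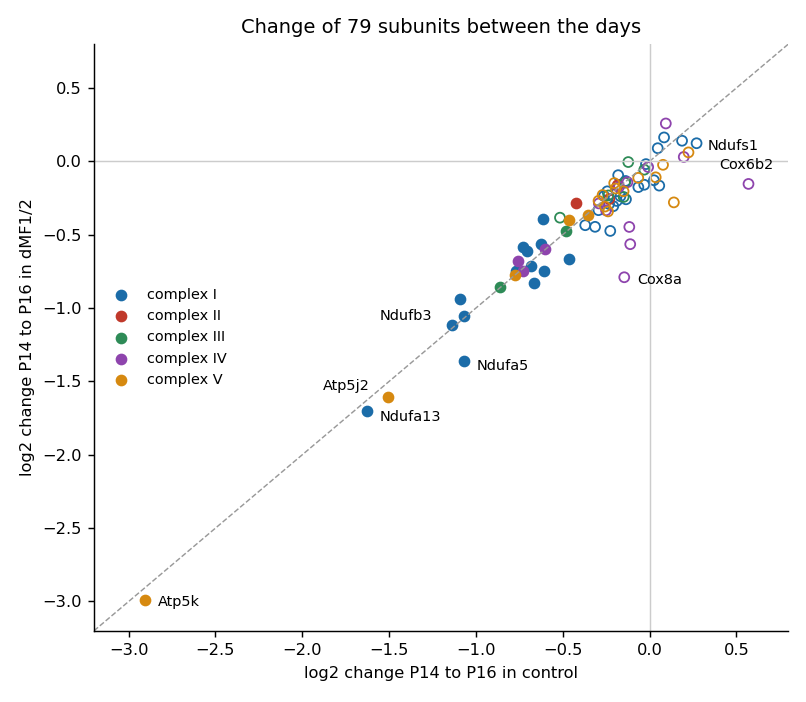
Each point is 1 of the 79 subunit genes, with its log2 change from P14 to P16 in control mice on the horizontal axis and in dMF1/2 mice on the vertical axis; filled points fell in both genotypes and the dashed line marks equal change. Atp5k lies apart at -2.91 and -2.99, and 66 of the points have both changes below 0.

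The steepest fall was that of Atp5k, subunit e of the ATP synthase, a small membrane protein that takes part in the pairing of ATP synthases. The gene lies at 5:108433244-108434448 on the minus strand. It had 293, 269 and 306 jointly scaled reads in P14 control and 35.3, 38.7 and 39.1 in P16 control. In dMF1/2 mice it had 251, 349 and 290 reads at P14 and 35.9, 52.3 and 24.9 at P16. The ages were far apart in both genotypes. The log2 change of Atp5k was -2.91 ± 0.22 in control, a 7.50-fold fall (SE, n = 3 and 3; limma's adjusted p = 6.09e-05), and -2.99 in dMF1/2 mice (adjusted p = 3.87e-05). Its level per length dropped from place 36 to place 74 of the 79 in control.

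Ndufa13 of complex I, also known as a cell death regulator, fell from 867, 788 and 877 jointly scaled reads to 262, 266 and 289 in control. In dMF1/2 mice it fell from 750, 887 and 801 to 250, 269 and 230. The log2 changes were -1.63 ± 0.09 (adjusted p = 1.00e-05) and -1.70 (adjusted p = 7.19e-06), the smallest p-values among the members. Of the 50-base words of its transcripts 28.5% also occur in transcripts of other genes, so that part of its reads is uncertain. The gene lies at 8:69894188-69902558 on the minus strand.

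Atp5j2, subunit f of the ATP synthase, fell from 467, 493 and 537 reads to 172, 141 and 220 in control and from 429, 491 and 461 to 135, 189 and 132 in dMF1/2 mice. No library of P16 reached a library of P14. The log2 changes were -1.50 and -1.61, with adjusted p-values of 6.40e-04 and 3.91e-04.

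The promoters of Atp5k and Atp5j2 are shown because these are the members of complex V with the steepest falls and each holds a match to 1 of the longer motifs searched. Capitals mark GCGCATGCG on either strand, the letters of nuclear respiratory factor 1 (NRF1), in Atp5k, and AAGATGGCG, the letters of YY1, in Atp5j2. The overlapping matches on the 2 strands in Atp5k begin 50 bases before the start, and the match in Atp5j2 begins 24 bases after it. Both sequences are from RefSeq for GRCm38.p6 on the minus strand, chr5:108434350-108434649 for Atp5k and chr5:145191492-145191791 for Atp5j2.
Atp5k promoter: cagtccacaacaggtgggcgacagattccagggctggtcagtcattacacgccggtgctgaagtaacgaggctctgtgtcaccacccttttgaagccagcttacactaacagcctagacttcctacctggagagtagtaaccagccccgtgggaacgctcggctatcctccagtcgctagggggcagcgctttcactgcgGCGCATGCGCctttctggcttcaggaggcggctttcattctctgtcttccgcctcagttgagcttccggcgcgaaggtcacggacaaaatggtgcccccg
Atp5j2 promoter: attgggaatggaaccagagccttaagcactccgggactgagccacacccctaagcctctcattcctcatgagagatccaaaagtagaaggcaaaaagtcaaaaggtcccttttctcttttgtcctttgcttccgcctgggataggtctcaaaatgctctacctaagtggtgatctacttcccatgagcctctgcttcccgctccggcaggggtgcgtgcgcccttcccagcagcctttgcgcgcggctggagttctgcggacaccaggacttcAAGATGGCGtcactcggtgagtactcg

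RefSeq promoters of 300 bases were matched to 67 of the 79 members. With both strands searched, 8 of the 67 (11.9%) held the NRF1 letters GCGCATGCG, against 3.59% of the 11655 other genes with a promoter. The YY1 letters AAGATGGCG were in 8 (11.9%) against 3.04%, and the shorter NRF1 core TGCGCA, which the longer motif need not contain, was in 18 (26.9%) against 14.7%. The ETS letters CCGGAAGT were in 5 (7.46%) against 8.01%, their shorter form CCGGAAG, which lies within them, in 16 (23.9%) against 17.8%, and TATAAA in 5 (7.46%) against 9.55%. These shares describe the letters in these windows and carry no test.

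**Figure D3:**
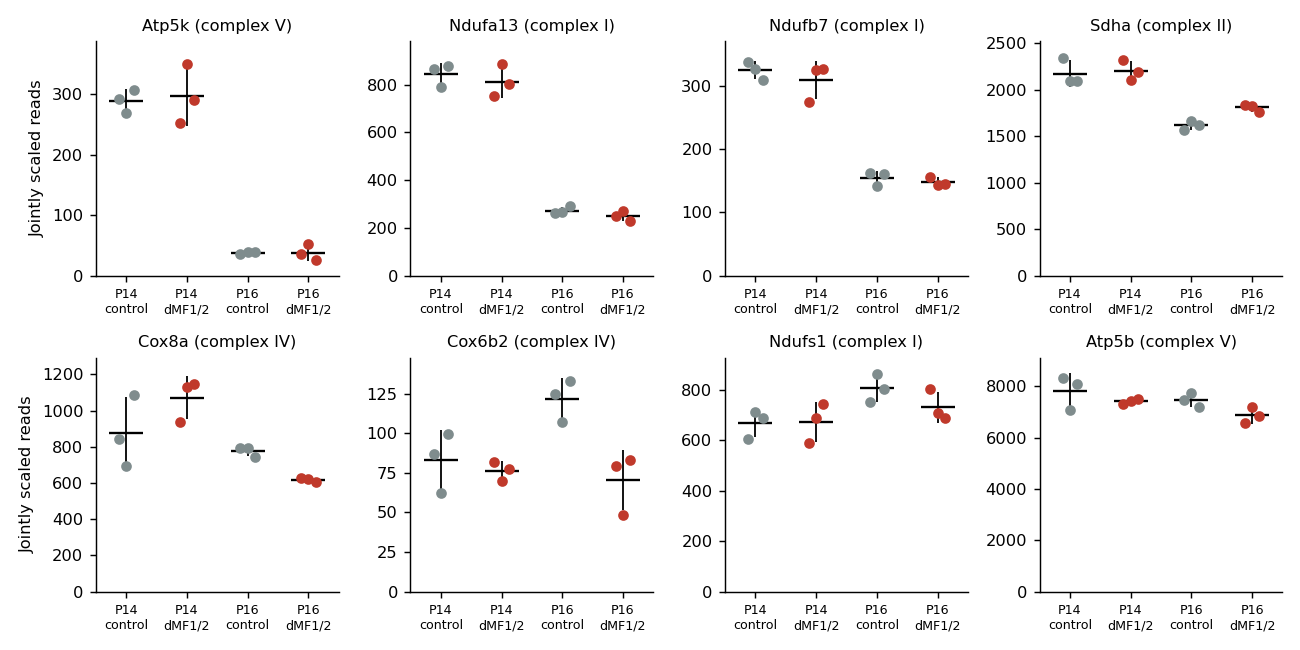
Jointly scaled reads of 8 subunit genes in each of the 12 libraries, in the groups P14 control, P14 dMF1/2, P16 control and P16 dMF1/2 (grey for control, red for dMF1/2); each point is 1 mouse, lines are group means and bars are SD. Atp5k, Ndufa13 and Ndufb7 are lower at P16 in both genotypes, Cox8a is lowest in P16 dMF1/2 mice (604 to 625 reads), and Atp5b lies between 6570 and 8342 reads throughout.

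In complex I, 14 of 36 members fell in control and 15 of 36 in dMF1/2 mice. Ndufb7, an accessory subunit of the membrane arm, fell from 339, 327 and 310 jointly scaled reads to 162, 142 and 160 in control, a log2 change of -1.07 (adjusted p = 2.96e-04), and by 1.05 on the log2 scale in dMF1/2 mice (adjusted p = 2.95e-04). Among the other accessory subunits, Ndufb3, Ndufb10 and Ndufa5, named after their values were seen, changed by -1.14, -1.09 and -1.07 in control and by -1.12, -0.94 and -1.36 in dMF1/2 mice. Ndufa1 changed by -0.66 (adjusted p = 0.0117) and -0.83 (adjusted p = 0.00600). Ndufs8, a core iron-sulfur subunit named after its values were seen, had 476, 403 and 437 reads at P14 and 247, 300 and 274 at P16 in control, a fall with a log2 change of -0.68 (adjusted p = 0.00389). It also fell by 0.71 on the log2 scale in dMF1/2 mice (adjusted p = 0.00373). Ndufs1 and Ndufv1, also core subunits that carry electrons, were not called. Ndufs1, which had 606, 712 and 689 reads at P14 and 752, 863 and 805 at P16 in control, had a log2 change of 0.27 (adjusted p = 0.110), and of 0.12 in dMF1/2 mice. The log2 change was -0.17 and -0.24 for Ndufv1 and 0.03 and -0.13 for Ndufb11, in control and dMF1/2 mice, and neither was called.

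In complex II, Sdha alone fell, from 2338, 2090 and 2093 jointly scaled reads to 1562, 1665 and 1623 in control and from 2320, 2108 and 2189 to 1838, 1829 and 1758 in dMF1/2 mice. The libraries of the 2 ages were separate in both genotypes. Sdha changed by -0.43 (adjusted p = 0.00497) and -0.29 (adjusted p = 0.0411). The log2 changes were -0.19 and -0.17 for Sdhb, -0.23 and -0.26 for Sdhc and -0.18 and -0.16 for Sdhd, none of them called.

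In complex III, 3 of 8 members fell in control and 2 of 8 in dMF1/2 mice. Both genotypes had falls of Uqcr11 (-0.86 and -0.86) and Uqcrh (-0.48 and -0.47), small subunits named after their values were seen. Uqcr10, the third in control, had log2 changes of -0.52 (adjusted p = 0.0112) there and -0.38 in dMF1/2 mice (adjusted p = 0.0560). The core proteins and the Rieske protein were not called, with changes of -0.14 and -0.15 in Uqcrc1, -0.12 and -0.00 in Uqcrc2 and -0.03 and -0.06 in Uqcrfs1.

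In complex IV, 3 of 14 members fell in control and 4 of 14 in dMF1/2 mice. Cox6a1, the widely expressed form of a subunit that binds adenine nucleotides, fell from 1310, 1253 and 1300 jointly scaled reads to 769, 771 and 790 in control (log2 change -0.73, adjusted p = 8.08e-04) and by 0.75 on the log2 scale in dMF1/2 mice. Cox5b changed by -0.76 (adjusted p = 0.00355) and -0.68 (adjusted p = 0.00800). Cox5a, where thyroid hormone is known to bind, changed by -0.60 in each genotype (adjusted p = 0.0198 and 0.0342). For Cox4i1, the most abundant subunit per length, the log2 changes were -0.25 (adjusted p = 0.0801) and -0.33 (adjusted p = 0.0515). They were -0.13 and -0.14 for Cox6b1, -0.01 and -0.04 for Cox7a2, 0.09 and 0.26 for Cox7a2l, -0.11 and -0.56 for Cox4i2 and -0.29 and -0.29 for Cox7a1, none of them called.

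In complex V, 5 of 17 members fell, and they were the same 5 in both genotypes: Atp5k, Atp5j2, Atp5j, Atp5g3 and Atp5d. Atp5j, coupling factor 6, and Atp5d, the delta subunit, both named after their values were seen, changed by -0.77 and -0.77 and by -0.35 and -0.36. Atp5g3 changed by -0.46 (adjusted p = 0.00355) and -0.40 (adjusted p = 0.00929), while Atp5g1 (-0.20 and -0.15) and Atp5g2 (-0.29 and -0.27), which encode the same mature protein, were not called. Atp5b had 8342, 7066 and 8094 jointly scaled reads in P14 control and 7467, 7751 and 7198 in P16 control, and these libraries overlapped. Its log2 change was -0.07 in control and -0.11 in dMF1/2 mice, that of Atp5a1 -0.20 and -0.19, that of Atp5c1 -0.15 and -0.20 and that of Atp5sl 0.22 and 0.06, none of them called.

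Summed over the 79 members, the jointly scaled reads of P14 libraries were 70442 to 75440 for control and 69448 to 72418 for dMF1/2 mice. At P16 the sums ran from 59664 to 65831 for control and from 55041 to 63314 for dMF1/2 mice, so the libraries of the 2 ages did not overlap. As a share of the reads of all genes listed at both ages, the members took 0.281% to 0.414% in P14 control and 0.235% to 0.268% in P16 control. In P14 dMF1/2 mice the share was 0.283% to 0.355%, and in P16 dMF1/2 mice 0.237% to 0.266%. The highest shares, 0.414% and 0.355%, were those of the replicates numbered 1 at P14, in which Col1a1 took the smallest share.

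**Figure D4:**
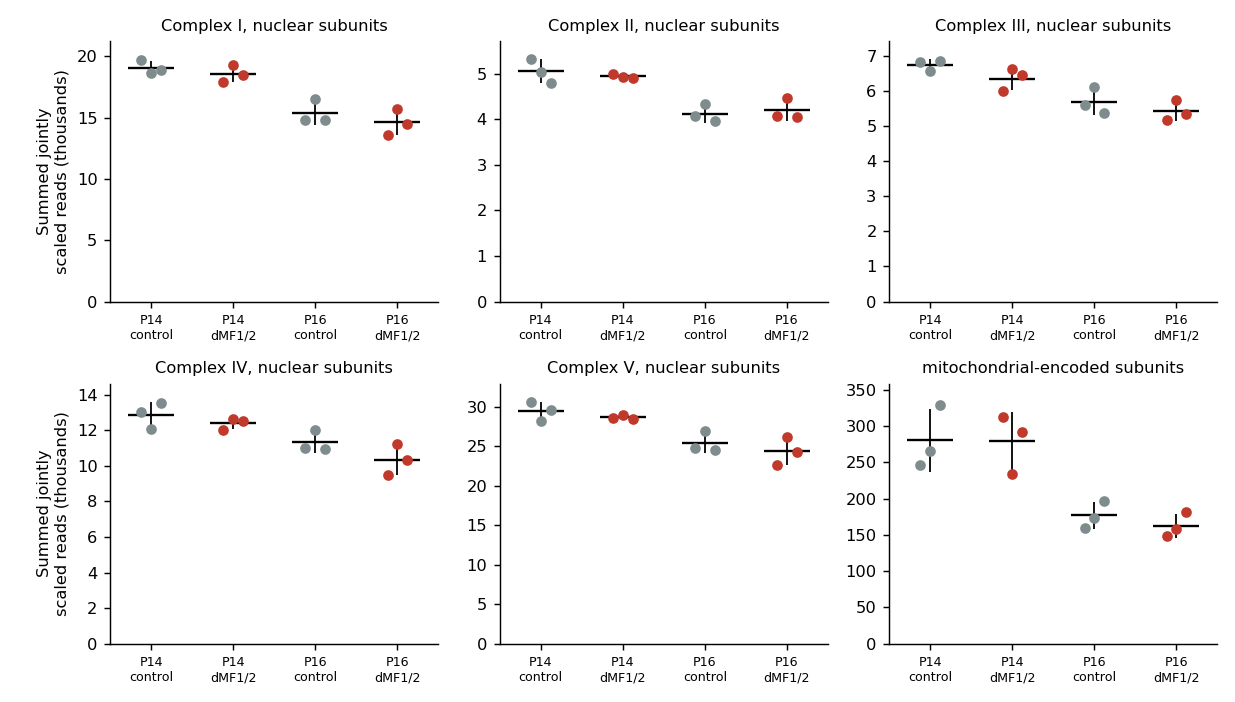
Summed jointly scaled reads, in units of 1000, of the members of each complex and of the 13 mitochondrial-encoded subunits, for each of the 12 libraries (grey for control, red for dMF1/2). Complex V has the largest sum of the nuclear complexes, 28135 to 30584 reads in P14 control and 24568 to 26944 in P16 control.

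Whether the change with age differed between the genotypes was tested as the interaction of genotype and age. None of the 79 members passed (0% of the 13415 genes did in limma), none did in DESeq2 (0.0522% of all genes) or edgeR (0%), and 2 stood at an unadjusted p under 0.05, 2.53% of the members against 4.83% of all genes. They were Cox8a and Cox6b2, which are 2 of the 3 genes that were lower at P16 with the block. The interaction contains the genotype difference of the same P16 libraries, so this recurrence is no separate result. Cox8a had 842, 692 and 1087 jointly scaled reads in P14 control and 793, 791 and 745 in P16 control, and these libraries overlapped (log2 change -0.15, not called). In dMF1/2 mice it fell from 935, 1132 and 1147 to 625, 620 and 604 (log2 change -0.79, adjusted p = 0.00800). The difference of the changes was -0.64 ± 0.20 (unadjusted p = 0.00706). Cox6b2 had 86.8, 62.0 and 99.8 reads in P14 control and 125, 107 and 133 in P16 control (log2 change 0.57, adjusted p = 0.110). In dMF1/2 mice it had 81.8, 70.0 and 77.4 at P14 and 79.2, 48.6 and 83.1 at P16 (-0.15). The difference of the changes was -0.72 ± 0.32 (unadjusted p = 0.0441). At P14 the genotype change was 0.32 in Cox8a, -0.09 in Cox6b2 and -0.15 in Ndufb11, none of them called.

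Of the 13 mitochondrial-encoded subunits, 11 fell from P14 to P16 in each genotype and none rose, with medians of -1.25 in control and -1.37 in dMF1/2 mice. These 11 are 84.6%, against 8.28% of all genes lower in control and 3.97% in dMF1/2 mice. The largest fall was that of mt-Nd6, which is encoded on the other strand from the remaining ones, at -4.49 and -4.95. The 2 that were not called, mt-Co1 (-0.17 and -0.10) and mt-Co3 (0.09 and -0.09), encode core subunits of complex IV. Summed over all 13, jointly scaled reads were 246940 to 329219 in P14 control, 233412 to 312170 in P14 dMF1/2, 160206 to 197400 in P16 control and 147923 to 180976 in P16 dMF1/2 mice. None of the 13 was called between genotypes at either age. At P14 their median genotype change was 0.01, with 6 below 0. At P16 it was -0.25, with all 13 below 0. There 3 of the 13 stood at an unadjusted p under 0.05 in limma, as did 19.0% of all genes.

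Other nuclear genes of the pathway were taken as lists, to be read against 8.28% of all genes lower in control and 3.97% in dMF1/2 mice. Of 8 further subunits and electron carriers, 2 fell in control (25.0%) and 3 in dMF1/2 mice (37.5%); Etfb, of the flavoprotein that brings electrons from fatty acid oxidation, changed by -1.42 and -1.70 and Cyc1, cytochrome c1 of complex III, by -0.35 and -0.55. Of 48 assembly factors, 7 fell in control (14.6%) and 4 in dMF1/2 mice (8.33%), among them Ndufaf2 of complex I (-1.34 and -1.22), and 1, Cox19, a copper-handling factor of complex IV, rose in dMF1/2 mice (0.41). Of 17 genes of pyruvate dehydrogenase and the citric acid cycle, 1 fell in each genotype (5.88%), the malate dehydrogenase gene Mdh2 (-0.43 and -0.33). Of 16 regulators of respiratory genes none was called, and their medians were 0.13 and 0.07. Of 76 genes of the mitochondrial ribosome, 16 fell in control (21.1%) and 13 in dMF1/2 mice (17.1%) and none rose, with a median of -0.22 in each. Of 74 genes of the cytosolic ribosome, 20 fell (27.0%) and 4 rose in control and 19 fell (25.7%) and 3 rose in dMF1/2 mice, with medians of -0.12 and -0.14. Between genotypes, 1 gene of these lists was called, Mrps6 of the mitochondrial ribosome, lower in dMF1/2 mice at P16 (-0.81, adjusted p = 0.0174). At P16 all 8 further subunits and electron carriers lay below 0 (median -0.16), as did 25 of the 48 assembly factors (median -0.01).

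Among all genes, short transcripts had the lower median change with age, and most of the members are short. The members were set beside other nuclear genes in bands of transcript length. Below 500 bases the other genes had medians of -0.30 in control and -0.25 in dMF1/2 mice, and the 12 members had -0.50 and -0.45. From 500 to 1000 bases the values were -0.15 and -0.16 for other genes and -0.28 and -0.40 for 40 members. From 1000 to 2000 bases they were -0.06 and -0.06 against -0.15 and -0.17 for 21 members, and from 2000 to 4000 bases 0.02 and 0.01 against -0.11 and -0.15 for 6 members. Above 4000 bases, where no member lies, other genes had medians of 0.11 and 0.10. The members' median was the lower in each band that holds members. Of the 26 falls in control, 7 and 17 came from the first 2 bands. Below 500 bases 7 of 12 members fell in control, where 30.5% of other genes fell. From 500 to 1000 bases 17 of 40 fell, against 17.8%. From 1000 to 2000 bases only 1 of 21 fell, against 10.2%, and from 2000 to 4000 bases 1 of 6, against 6.92%. In dMF1/2 mice 6, 19, 1 and 1 members fell in these bands, against 21.95%, 13.2%, 5.91% and 2.27% of other genes. The part of transcript length in the change with age was not tested beyond these bands. The DP markers also moved with age, with 8 of 14 lower in control (median -1.02) and none called in dMF1/2 mice (median -0.22); the interaction called none of the 14. Of the other marker sets in control, higher calls went to 2 of 4 melanocyte genes (median 0.46), 1 of 5 endothelial genes (median 1.71) and 1 of 7 pericyte and smooth muscle genes (median 0.26), and lower calls to 1 of 2 adipocyte genes (median -0.86) and 1 of 6 keratinocyte genes (median -0.80). Among all the marker sets in dMF1/2 mice, 1 of 8 skeletal muscle genes was lower and no other gene was called. The part of these marker sets in the change of the members with age was not tested.

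**Figure D5:**
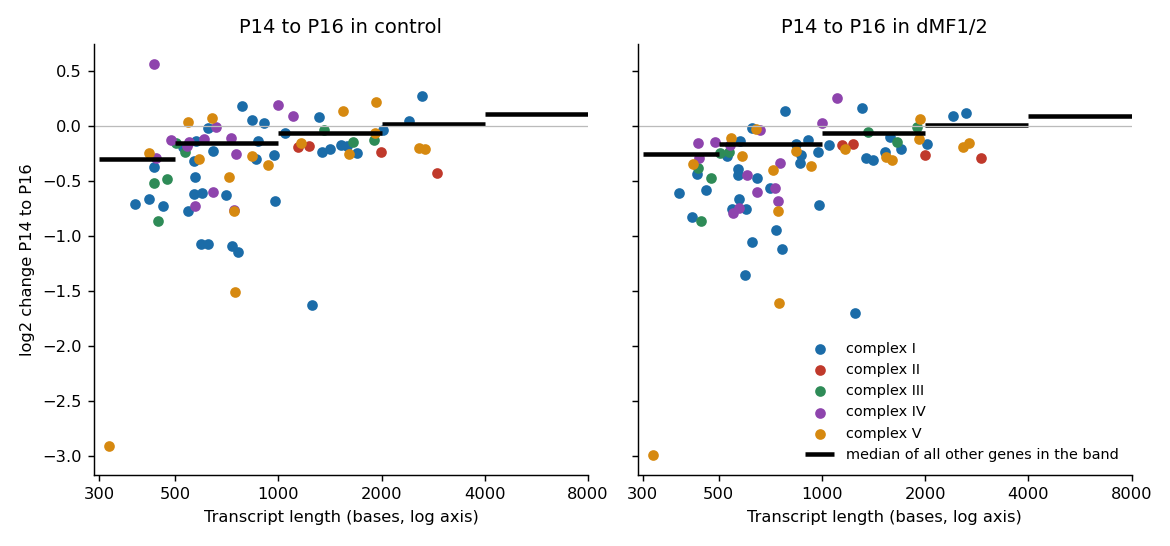
Log2 change from P14 to P16 of the 79 subunit genes against transcript length in bases (log axis), in control and in dMF1/2 mice; black lines are the medians of all other nuclear genes in the same band of length. The lines run from -0.30 in the shortest band to 0.11 above 4000 bases in control, and the members lie mostly below them.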

How the data were processed

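FACS-sorted DP cells had been profiled by RNA-seq, and the 6 libraries of P14 and the 6 of P16, each 3 of control and 3 of dMF1/2 mice, were analysed. Ribosomal RNA was depleted, libraries were stranded, and reads were single-end. After trimming (Trimmomatic) and mapping (TopHat2, mm10) of the reads, the authors counted them per Ensembl gene (GRCm38.p4) with HTSeq and normalized them with DESeq2; the strand setting of the counting is not given in the sources used here. The deposited signal values are reads divided by the authors' size factors over the 6 libraries of an age, and 100% were whole multiples of 1 read within 0.01, so whole reads were recovered. The deposited log2 fold changes, the score of the authors' Wald test and the deposited p-values hold the authors' comparisons and were not used.

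Members and lists were chosen with earlier results of these data known. Genotypes were compared within an age in the deposited scaling with limma 3.58.1 (mean-variance trend, R 4.3.3) on log2 of the value plus 1, keeping genes whose mean reached 10. Adjusted p-values are Benjamini-Hochberg values over all genes tested, with a threshold of 0.05. For changes with age, median-of-ratios factors over the 12 libraries rescaled the recovered reads of 14986 genes, and 1 model held the 4 groups. P-values measure the spread between mice, 3 in a group. Same-numbered libraries of the 2 genotypes correlated in their deviations from the group means (0.586, 0.389 and 0.304 at P14, 0.256, 0.293 and 0.311 at P16), so the number was tried as a block. Alternatives were DESeq2 1.42.0, edgeR 4.0.16, other pseudocounts (0.1 and 10), filters and scalings, and leaving out libraries; leaving out pairs with the block was added after the data were seen. The tests were tried on simulated data. Transcript lengths, coordinates and shared 50-base words come from GENCODE M21 (GRCm38).

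Genes named singly were those called between genotypes with or without the block, the members of each complex with the smallest p or the largest change at P16, core and catalytic subunits and tissue isoforms by role, and the 3 members with the smallest p in each change with age; all others, marked so or not, were named after their values were seen, and 1 gene of this rule is not reported here. Depth, 19302358 to 29860750 reads of listed genes in a library, sets the precision of low genes such as Atp5s and Cox7a1.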

Additional observations from a re-analysis of the deposited data

How the results depend on the processing

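Of 2292 values of single genes under the alternatives, 2185 kept their direction and their side of the threshold, 31 lost and 20 gained a call, and 56 changed sign. The count of members called at P16 was 2 with DESeq2 and 3 with the replicate block, and 0 to 1 when pairs were left out of the blocked fit. The count called with age in control was 15 with scaling by total reads. In dMF1/2 mice it was 11 with that scaling, 15 in the fit of 6 libraries and 16 to 28 when libraries were left out. Replicate numbers of the 2 ages did not pair the samples (correlations -0.0545, -0.0621 and -0.13 for control mice, 0.0292, 0.208 and -0.162 for dMF1/2 mice). With that replicate block 28 members were lower and 1, Cox6b2, higher in control (adjusted p = 0.0371), and 30 lower in dMF1/2 mice. Of all 13415 genes, 1224 were then lower and 1019 higher in control, and 612 lower and 332 higher in dMF1/2 mice. With the block the counts at P14 and for the interaction were 0. At P14, and for the interaction, no alternative called a member. The cause was not tested for any of these.

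Signs changed mostly in genes near 0. With scaling by total reads the log2 change at P16 was 0.0481 for Fgfr2, 0.0405 for Atp5c1, 0.0362 for Atp5g2, 0.0179 for Atp5g3, 0.00498 for Atp5k, 0.00989 for Cox6b1, 0.0359 for Cox7a2, 0.00533 for Ndufb7, 0.00623 for Sdhc and 0.0109 for Sdhd, and with age in control -0.0148 for Cox7a2l and -0.0833 for Ndufb11. DESeq2 and edgeR gave 0.0136 and 0.0164 for Atp5k at P16, and DESeq2 2.162e-05 for Uqcrc2 with age in dMF1/2 mice. When libraries were left out, the log2 change at P14 ran from -0.2194 to 0.0308 for Fgfr2 and from -0.2817 to 0.0584 for Cox6b2. At P16 it ran from -0.1316 to 0.1396 for Fgfr2, -0.0173 to 0.0644 for Atp5a1, -0.0995 to 0.0607 for Atp5c1, -0.1222 to 0.0975 for Atp5g2, -0.0907 to 0.00555 for Atp5g3, -0.5304 to 0.0444 for Atp5j2, -0.313 to 0.2298 for Atp5k, -0.3365 to 0.0695 for Cox4i2, -0.0926 to 0.00241 for Cox6b1, -0.1674 to 0.1912 for Cox7a2, -0.1389 to 0.0400 for Sdhd and -0.0110 to 0.1978 for Uqcrc2. With age in control it ran from -0.2946 to 0.0417 for Cox4i2, -0.0601 to 0.0521 for Cox7a2, -0.3015 to 0.0244 for Cox8a, -0.0161 to 0.0532 for Ndufb11 and -0.0604 to 0.00885 for Uqcrfs1. In dMF1/2 mice it ran from -0.1765 to 0.2202 for Atp5sl, -0.2921 to 0.0883 for Cox6b2, -0.1227 to 0.1267 for Cox7a2, -0.0687 to 0.0372 for Uqcrc2 and -0.1591 to 0.0160 for Uqcrfs1.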
